A study of Mus musculus with 32 samples.

Results

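The kinesin, dynein and dynactin genes code for the motors that carry cargo along microtubules. The set was taken by gene name: probes other than controls whose name in the array files begins with Kif or Klc and a digit, or with Dync, Dynl or Dctn, with 1 Dctn gene left out. Each gene was read from its brightest probe. This gave 52 genes of 27539 on the array, held on 112 of 41174 probes: 34 kinesins and 18 genes of dynein and dynactin. Klc1, a kinesin light chain, is listed in the files under its older name Kns2 and is therefore outside the set. The Kifc kinesins are outside it as well, because no digit follows Kif in their names.

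Kinesins mostly walk toward the plus ends of microtubules and carry vesicles, mitochondria and cytoskeletal parts from the cell body down the axon. Cytoplasmic dynein walks toward the minus ends and returns endosomes and trophic signals to the cell body, and dynactin is the complex that it needs for long runs and for binding cargo. Motor neurons have very long axons, and mutations in genes of both motors cause motor neuron disease in humans.

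The arrays compared transgenic with littermate nontransgenic mice, all female, in cells cut by laser from the lumbar spinal cord. SOD1-G93A mice, strain B6SJL-Tg(SOD1-G93A)1Gur, carry a mutant human superoxide dismutase and were 8 weeks old, with B6SJL littermates as controls. TAU-P301L mice, strain B6D2F1-Tg(TAU-P301L), carry a mutant tau and were 16 weeks old, with B6D2F1 littermates as controls, so model, age and strain differ together. The labels do not name the promoter of either transgene. Per mouse, 500 cells (motor neurons, or glia near them) were captured from 12 µm sections by their look under cresyl violet. SODmn and SODgl stand here for motor neurons and glia of the SOD1-G93A colony, and TAUmn and TAUgl for those of the TAU-P301L colony. Each of these 4 comparisons had 4 littermate pairs, and every pair was measured on 2 arrays of opposite dye orientation, so that n is 4 pairs. Nothing in the labels gives a repeat extract of a mouse.

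A log2 ratio below is transgenic over control, averaged over the 2 arrays of a pair. Testing required a signal well above background under both dyes in 4 or more of the 8 extracts of a comparison. A gene passed at an adjusted p of 0.05, from limma with Benjamini-Hochberg adjustment over all genes tested. The number of pairs limits the precision: the median standard error of a tested motor gene was 0.10 in each of the 4 comparisons on the log2 scale.

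Some extracts stood apart. The SODmn pair 3 extracts correlated with the other motor neuron extracts at a median of 0.655 and 0.72, against 0.897 to 0.948 for the others. Among glia the TAUgl pair 1 extracts reached 0.822 and 0.825 and those of SODgl pair 2 0.884 and 0.885, against 0.836 to 0.929 for the others, so neither pair stood far apart on this measure. The arrays of SODgl pair 2 and TAUgl pair 1 had 4.5% to 17.4% outlier spots, against at most 0.737% elsewhere. The log2 ratios of the 2 dye-swapped arrays of a pair, after turning the sign by dye, correlated between -0.80 and 0.72, and below 0 in 6 of 16 pairs. Prnp averaged 1.08 ± 0.30 in TAUmn and 0.89 ± 0.19 in TAUgl (log2 ratio, SD, n = 4 pairs each) and was above 0 in every TAU pair, with limma adjusted p = 0.214 and 0.142. The Sod1 probe averaged -0.08 in SODmn and -0.11 in SODgl, and the Mapt probe -0.10 in TAUmn and 0.08 in TAUgl (log2 ratios); both are mouse probes and do not check the labels of human transgenes. Of the markers, Snap25 lay at 10.63 to 12.19 in control motor neurons and 8.27 to 9.94 in control glia (log2 intensity). Mag lay at 8.00 to 10.73 in control motor neurons and 11.56 to 12.20 in control glia, so neither marker was absent from either cell type. Not all markers separated the cell types. The motor neuron markers Isl1 (6.38 to 6.77 against 6.44 to 7.67) and Mnx1 (5.99 to 6.49 against 6.36 to 6.74) leaned toward control glia. Of 10 motor neuron markers tested between control cell types, 5 passed as higher in motor neurons and 1 as lower. Of 4 interneuron markers tested, 3 also passed as higher in motor neurons and 0 as lower, with a median difference of 0.60. Of 9 astrocyte markers 4 passed as lower, and of 8 oligodendrocyte markers 5 did. Of all genes 23.5% were higher and 13.6% lower. Chat, the enzyme that makes acetylcholine, was above background in 4 of 8 control motor neuron extracts and in 2 of 8 control glia extracts, and Gfap, the astrocyte filament, in 3 of 8 of each. Mog, a myelin protein, was above background in none of the extracts of any comparison.

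Control motor neurons differed from control glia in 8 of the 28 motor genes tested between them, 5 higher and 3 lower. Of all 9914 genes tested there, 37.1% passed, 23.5% higher and 13.6% lower, against 28.6% of the motor genes. Which share was larger depended on SODmn pair 3. Higher in motor neurons were Dync1i1, Dynlt3, Dctn6, Dctn4 and Kif2a. Lower were Klc2, Dynlt1 and Kif1c. Motor neuron arrays carry software version 8.5.1.1 in their headers and glia arrays 9.5.1.1, and no scan held both, so cell type, scan and software version cannot be told apart here. Fewer cells of a type and less RNA per cell cannot be told apart either.

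For 4 of these 8 genes the RefSeq table of GRCm38.p6 holds a promoter, and they are shown because the genes differ between the captured cell types. Each is the 250 bases before the start on the transcribed strand, 5′ to 3′. Capitals mark matches on either strand to the NRF1 motif (GCGC, any 2 bases, GCGC) or the SP1 motif (GGGCGG), which may overlap.
Dync1i1: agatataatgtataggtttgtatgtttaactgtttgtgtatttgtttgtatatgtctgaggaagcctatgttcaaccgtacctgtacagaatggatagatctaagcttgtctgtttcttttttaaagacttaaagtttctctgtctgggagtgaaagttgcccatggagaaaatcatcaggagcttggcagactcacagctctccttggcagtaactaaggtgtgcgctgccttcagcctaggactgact
Dynlt3: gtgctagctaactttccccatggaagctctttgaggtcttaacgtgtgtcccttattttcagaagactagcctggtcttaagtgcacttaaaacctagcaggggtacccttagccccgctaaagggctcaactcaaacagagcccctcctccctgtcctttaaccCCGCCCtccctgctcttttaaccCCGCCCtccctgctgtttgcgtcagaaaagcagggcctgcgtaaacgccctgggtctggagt
Kif1c: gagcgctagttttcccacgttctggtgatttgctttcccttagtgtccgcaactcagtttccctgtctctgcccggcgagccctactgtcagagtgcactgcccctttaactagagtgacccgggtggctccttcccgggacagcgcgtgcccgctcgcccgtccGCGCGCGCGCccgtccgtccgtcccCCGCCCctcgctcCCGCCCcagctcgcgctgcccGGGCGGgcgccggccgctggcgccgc
Kif2a: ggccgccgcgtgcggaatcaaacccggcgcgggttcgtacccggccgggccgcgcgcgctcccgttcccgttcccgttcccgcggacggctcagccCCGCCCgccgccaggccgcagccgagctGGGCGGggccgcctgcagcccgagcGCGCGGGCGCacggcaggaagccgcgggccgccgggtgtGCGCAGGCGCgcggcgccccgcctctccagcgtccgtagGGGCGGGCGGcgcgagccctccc
The Dync1i1 window, at chr6:5725389-5725638 on the plus strand, had 40.8% G and C and no match. The Dynlt3 window, at chrX:9662984-9663233 on the minus strand, had 54% and 2 SP1 matches. The Kif1c window, at chr11:70700298-70700547 on the plus strand, had 70.8%, with 1 NRF1 and 3 SP1 matches. The Kif2a window, at chr13:107022356-107022605 on the minus strand, had 82.8%, with 2 NRF1 and 4 SP1 matches. Of the 40 motor genes with an entry, 5 held the NRF1 letters and 23 the SP1 letters, against 5.09% and 32.9% of all 27025 promoters of that length. CCAAT was found in 17 of the 40 and in 34.5% of all promoters, and TATAAA in 4 of the 40 and in 13% of all. These are matches of letters and not binding sites.

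Dync1i1 codes for the dynein intermediate chain that is largely neuronal and links the motor to dynactin. Its probe lies at chr6:5977730-5977789 on the plus strand (mm8). Its level was 7.01 at the lowest, 7.28 at the median and 7.67 at the highest in control motor neurons, against 5.83, 6.26 and 6.73 in control glia (log2 intensity, 8 extracts each). The ranges did not overlap, and the probe was above background in 8 motor neuron and 3 glia controls. The difference was 1.04 ± 0.12 (SE; limma adjusted p = 7.9e-05). The probe met the filter through the motor neuron extracts, and 5 of the 8 glia values were not well above background, so the glia level behind this difference is close to background. Among the 28 motor genes tested it was the only one whose control extracts did not overlap, where 4.42% of all genes tested were higher without overlap and 2.19% lower.

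The Tctex-type dynein light chains differed in opposite directions. Dynlt3 lay at 7.02, 7.39 and 7.87 (lowest, median, highest) in control motor neurons, against 6.05, 6.68 and 7.12 in control glia. The ranges overlapped only at their edges, with a difference of 0.78 ± 0.16 (SE, limma adjusted p = 0.00221). Dynlt1 lay at 7.02, 7.53 and 7.95 in control motor neurons, against 7.89, 8.31 and 8.73 in control glia, a difference of -0.78 ± 0.17 (SE, limma adjusted p = 0.00271). The Dynlt1 result belongs to 1 probe: 2 dimmer probes gave 0.12 and 0.16, and mouse carries near-identical copies of this gene, so its value is uncertain.

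Among dynactin subunits, Dctn6, a subunit of the pointed end, lay at 7.05, 7.86 and 8.21 in control motor neurons, against 6.79, 7.18 and 7.55 in control glia. The low motor neuron value is SODmn pair 3, and the difference was 0.65 ± 0.16 (SE, limma adjusted p = 0.00597). Dctn4, also of the pointed end, differed by 0.57 ± 0.14 (SE, limma adjusted p = 0.00569), and its dimmer probes, above background in 5 and 1 of the 16 controls, gave 0.05 and -0.26. Dctn1, the large subunit that binds dynein and microtubules, differed by 0.05 ± 0.10 and Dctn5 by 0.26 ± 0.15 (SE), and neither passed. Dctn1 was above background in 5 motor neuron and 3 glia controls, so its small difference was read close to background.

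Among kinesins, Kif2a, a kinesin-13 that takes microtubule ends apart, lay at 6.70, 7.48 and 7.72 in control motor neurons, against 6.05, 6.97 and 7.22 in control glia, a difference of 0.56 ± 0.18 (SE, limma adjusted p = 0.0231). Of its dimmer probes, the one above background in 10 of the 16 controls gave 0.08, and the one above it in 2 gave -0.18. Klc2, a light chain that ties kinesin-1 to its cargo, has its probe at chr19:5108452-5108511 on the minus strand (mm8). Klc2 lay at 6.71, 7.03 and 7.39 in control motor neurons, against 6.31, 8.37 and 9.05 in control glia, a difference of -0.997 ± 0.297 (SE, limma adjusted p = 0.0161). Its motor neuron values were close together, and its glia values were spread widely, with TAUgl pair 1 at the bottom. Kif1c, a kinesin-3, differed by -0.44 ± 0.11 (SE, limma adjusted p = 0.00526), from 1 of 4 probes, another of which gave 0.17.

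**Figure D1:**
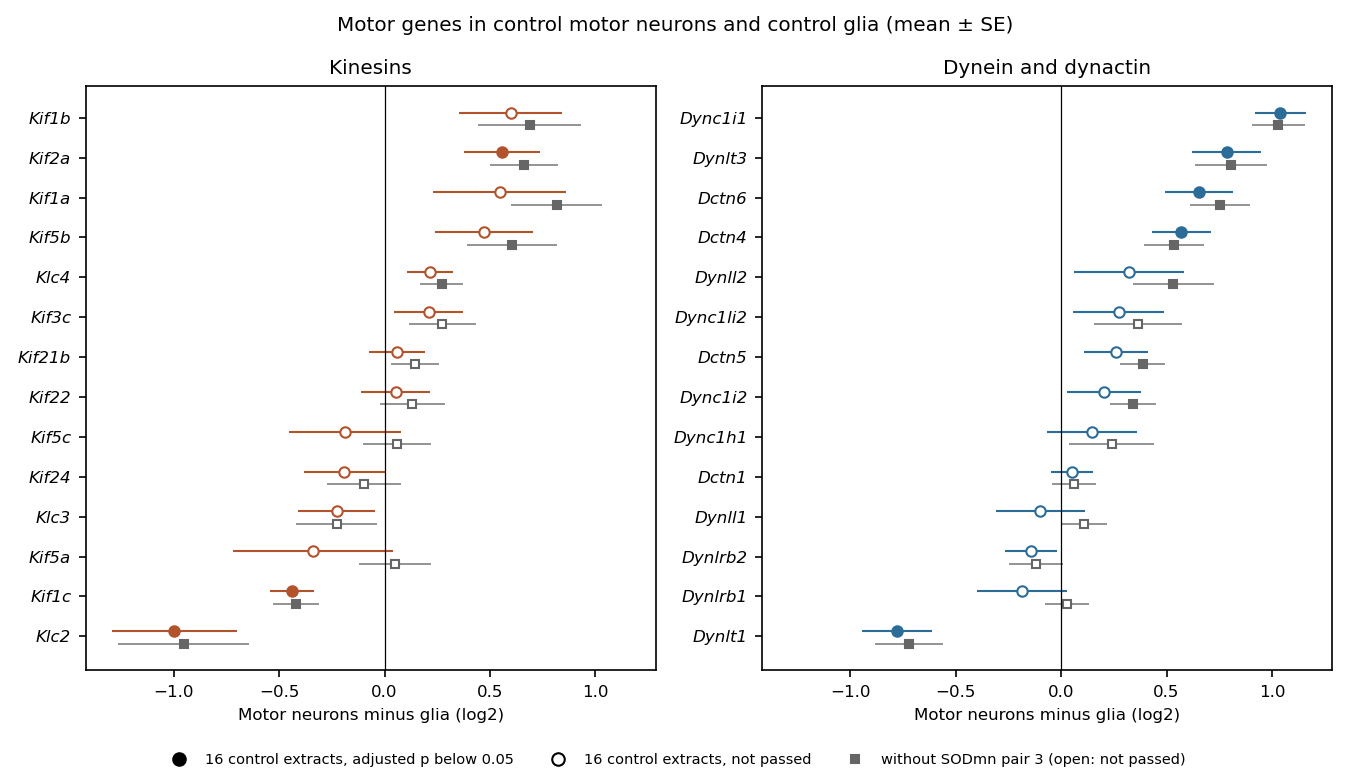
Difference in level, control motor neurons minus control glia, on the log2 intensity scale (x axis) for the 28 motor genes tested, with standard errors. Dync1i1 at 1.04 is the farthest to the right and Klc2 at -0.997 the farthest to the left.

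The kinesin-1 heavy chains, which pull most fast cargo, did not pass. Kif5a, the neuronal form, lay at 8.75, 11.79 and 12.07 in control motor neurons, against 11.27, 11.58 and 12.28 in control glia. The value of 8.75 is SODmn pair 3, whose transgenic extract had 8.69. Kif5a differed by -0.34 ± 0.38 (SE), Kif5b by 0.47 ± 0.23 and Kif5c by -0.19 ± 0.27. Without SODmn pair 3, Kif5a was at 0.05 ± 0.17, Kif5b at 0.60 ± 0.21 and Kif5c at 0.06 ± 0.16 (SE), so that Kif5a and Kif5c changed sign and Kif5b passed. Kif1a, which carries synaptic vesicle precursors, differed by 0.55 ± 0.32 and Kif1b, which carries mitochondria and vesicles, by 0.60 ± 0.24 (limma adjusted p = 0.181 and 0.0635).

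This set of calls depended on SODmn pair 3. Without it 15 of the 28 passed (53.6%), 12 higher and 3 lower, where 44.5% of all genes did. Those added were Dctn5, Dync1i2, Dynll2, Kif1a, Kif1b, Kif5b and Klc4, with Kif1a at 0.82 ± 0.22, Dctn5 at 0.39 ± 0.11 and Dync1i2 at 0.34 ± 0.11 (SE). Dynlrb1 was then at 0.03 ± 0.10 and Dynll1 at 0.11 ± 0.11, against -0.19 and -0.10 with the pair, and neither passed either way. With SODgl pair 2 and TAUgl pair 1 left out as well, 15 passed (53.6%), 11 higher and 4 lower, where 49.7% of all genes did. Klc2 was then at -1.37 ± 0.15 and Klc3 at -0.48 ± 0.12 (SE).

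**Figure D2:**
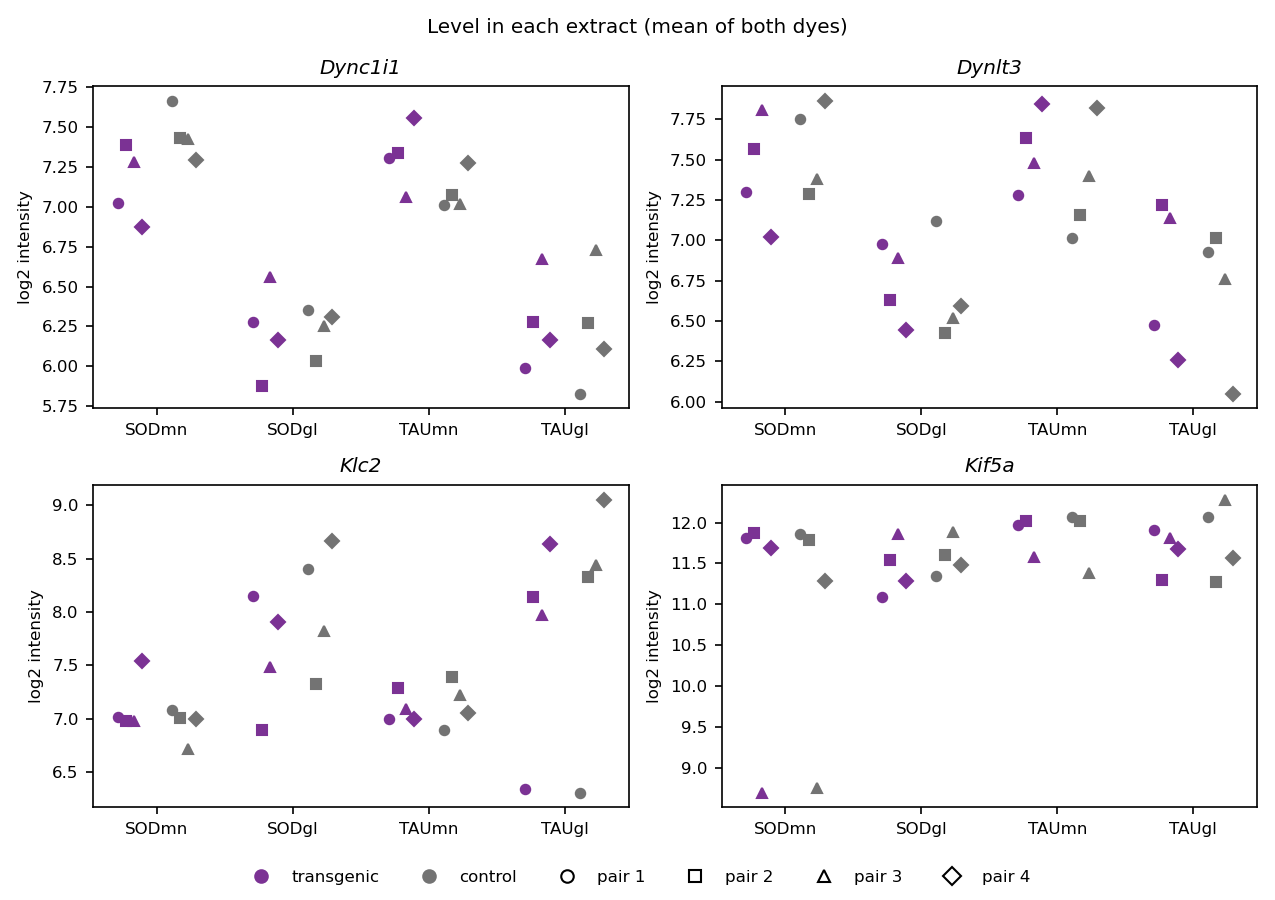
Level of Dync1i1, Dynlt3, Klc2 and Kif5a in each extract (y axis, log2 intensity), by comparison and by transgenic or control extract. Kif5a in both extracts of SODmn pair 3, at 8.69 and 8.75, sits far below the other motor neuron extracts.

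Of the 52 motor genes, 34 were tested in at least 1 transgenic comparison and 26 in all 4. The 18 that were never tested were 17 kinesins and Dync2li1, a light intermediate chain of the dynein of cilia. Their control levels lay between 5.73 and 7.29 in motor neurons and between 5.78 and 7.12 in glia (log2 intensity), and each was above background in at most 5 of the 16 control extracts. They include 7 of the 9 mitotic kinesins, among them Kif11 and Kif23, and Kif21a and Kif17, which are known from neurons. Too few extracts gave a signal for a test, which does not show that these transcripts were absent.

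In SOD1-G93A motor neurons none of the 34 motor genes tested passed, and none of all 13262 genes did (0% by limma's adjusted p). At an unadjusted p under 0.05 there were 4 motor genes, all lower, where 9.4% of all genes were below that p, 3.47% higher and 5.93% lower. The median log2 ratio was -0.05 over the motor genes and 0.00 over all genes tested. The 3 dynein and dynactin genes among them were Dync1i1, Dync1li2 and Dctn6, and the kinesin was Kif24.

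Dync1i1 had levels of 7.02, 7.39, 7.28 and 6.88 in SOD1-G93A motor neurons, against 7.67, 7.43, 7.43 and 7.30 in their littermates (log2 intensity, pairs 1 to 4). The transgenic extract was the lower in every pair, by little in pair 2, and the groups overlapped. The log2 ratios were -0.64, -0.05, -0.15 and -0.42, with a mean of -0.31 ± 0.27 (SD, n = 4 pairs; limma adjusted p = 0.398).

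Dync1li2, a light intermediate chain that binds cargo adaptors, had log2 ratios of -0.55, 0.10, -0.04 and -0.68 (mean -0.29 ± 0.38, SD). Dctn6 had -0.28, -0.27, -0.06 and -0.60 (mean -0.30 ± 0.23). Kif24, a kinesin-13 of centrioles, had 0.01, -0.45, 0.03 and -0.48 (mean -0.22 ± 0.28). Dctn6 was below 0 in all 4 pairs, and the other 2 had ratios far below 0 in 2 pairs each. Kif2a was below 0 in all 4 as well, at -0.07, -0.09, -0.27 and -0.32, and Klc3, a light chain, above 0 in all 4, at 0.01, 0.21, 0.07 and 0.11. With Dync1i1 these made 4 motor genes of 1 sign in all pairs, where 13.3% of all genes had 1 sign.

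The kinesin-1 heavy chains averaged 0.10 ± 0.22 for Kif5a, -0.19 ± 0.36 for Kif5b and -0.19 ± 0.47 for Kif5c in SODmn (log2 ratio, SD). Kif1a averaged 0.08 ± 0.57, and its pairs ran between -0.69 and 0.66. Dync1h1, the heavy chain that holds the motor, averaged -0.13 ± 0.63, and Dctn1, above background in 4 of the 8 extracts, 0.00 ± 0.29. None differed from 0 beyond the spread of the pairs. Motor neuron markers were mostly below 0 as well: the 13 listed had a median log2 ratio of -0.23 with 3 above 0, and 8 of 8 oligodendrocyte markers tested were above 0, with a median of 0.12. The summed motor neuron markers ranged from 11.6 to 15.0 in SOD1-G93A extracts and from 11.7 to 15.1 in their littermates (log2), and were higher in the transgenic extract of 1 pair. Their part in the values of Dync1i1 and the others was not tested.

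**Figure D3:**
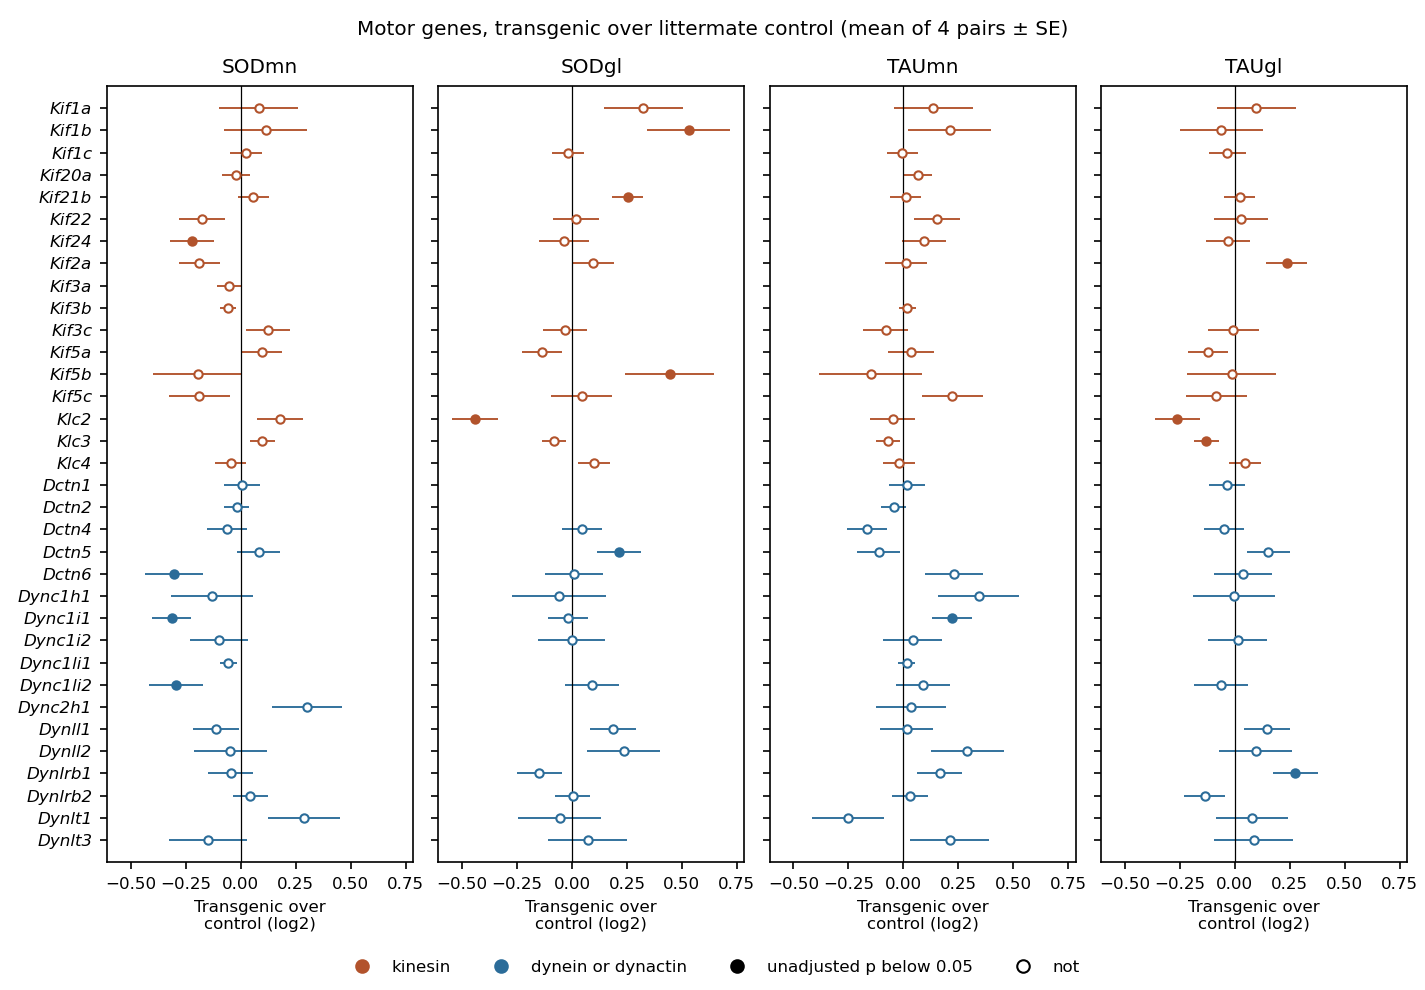
Mean log2 ratio of transgenic over control (axis) for each motor gene tested in SODmn, SODgl, TAUmn and TAUgl, kinesins apart from dynein and dynactin. The values range from -0.44 for Klc2 to 0.53 for Kif1b, both in SODgl, and none passed an adjusted p of 0.05.

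In SOD1-G93A glia none of the 27 motor genes tested passed, and none of all 10443 genes did (0%). At an unadjusted p under 0.05 there were 5, 4 higher and 1 lower, where 14.9% of all genes were below that p, 6.88% higher and 8.03% lower. The median was 0.02 over the motor genes and 0.02 over all genes. Klc2 was the lower one, and Kif21b, Kif1b, Kif5b and Dctn5 the higher ones.

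Klc2 had levels of 8.15, 6.90, 7.49 and 7.91 in SOD1-G93A glia, against 8.40, 7.33, 7.83 and 8.66 in their littermates (log2 intensity, pairs 1 to 4). The transgenic extract was lower in every pair, and the groups overlapped because pairs differed from each other. The log2 ratios were -0.25, -0.43, -0.34 and -0.75, with a mean of -0.44 ± 0.22 (SD, n = 4 pairs; limma adjusted p = 0.0968).

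Kif21b, a kinesin-4 that also paces microtubule growth, had levels of 6.84, 6.71, 7.45 and 7.24 in SOD1-G93A glia, against 6.73, 6.46, 7.06 and 6.98 in their littermates. The transgenic extract was higher in every pair, and the groups overlapped. Its log2 ratio was 0.25 ± 0.11 (SD, n = 4 pairs; limma adjusted p = 0.101).

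Kif1b had log2 ratios of -0.18, 0.77, 1.05 and 0.49 in SODgl (mean 0.53 ± 0.53, SD) and Kif5b, the kinesin-1 heavy chain of most tissues, 0.27, 0.87, 0.82 and -0.17 (mean 0.45 ± 0.50). Each had 1 pair of the opposite sign. Dctn5 had 0.08, 0.31, 0.03 and 0.44. In all, 7 motor genes had 1 sign in every pair, 5 above and 2 below 0, where 19% of all genes had 1 sign. The 9 astrocyte markers tested were all above 0 in SODgl, with a median of 0.07, and the summed astrocyte markers ranged from 13.1 to 14.0 in SOD1-G93A extracts and from 13.2 to 14.0 in their littermates (log2), higher in the transgenic extract of 1 pair. The summed endothelial and pericyte markers ranged from 9.02 to 9.46 in SOD1-G93A extracts and from 8.62 to 9.30 in their littermates, higher in the transgenic extract of all 4 pairs, with 4 of 5 tested above 0 and a median log2 ratio of 0.10. Their part in these values was not tested. Kif24, Dynlt1, Dync1h1 and Dync1i2 lack pair 2, whose spots were marked as outliers, and rest on 3 pairs.

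In TAU-P301L motor neurons none of the 33 motor genes tested passed, and none of all 11634 genes did (0%). At an unadjusted p under 0.05 there was 1, Dync1i1, which was higher, where 3.46% of all genes were below that p, 1.83% higher and 1.62% lower. The median was 0.03 over the motor genes and -0.01 over all genes. Dync1i1 had levels of 7.31, 7.34, 7.06 and 7.56 in TAU-P301L motor neurons, against 7.01, 7.07, 7.02 and 7.27 in their littermates (log2 intensity, pairs 1 to 4). The transgenic extract was higher in every pair, barely so in pair 3, and the groups overlapped. The mean log2 ratio was 0.22 ± 0.12 (SD, n = 4 pairs; limma adjusted p = 0.999).

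Dctn4 was below 0 in all 4 TAUmn pairs, at -0.20, -0.27, -0.08 and -0.12, and Dynlrb1, a roadblock light chain, above 0 in all 4, with a mean of 0.16 ± 0.05 (log2 ratio, SD). Dync1h1 had 0.45, 0.20, -0.05 and 0.77. In all, 9 motor genes had 1 sign in every pair, 5 above and 4 below 0, and 7 of the 9 belonged to dynein and dynactin, where 12.6% of all genes had 1 sign. None passed the test. Kif5c averaged 0.22 ± 0.21 and Kif1a 0.14 ± 0.30. Kif5a, Kif5b and Dynll1 lack pair 4 here. In TAUmn 7 of 10 motor neuron markers were above 0, with a median of 0.08, and 2 of 7 oligodendrocyte markers, with a median of -0.06. The summed motor neuron markers ranged from 14.3 to 15.1 in TAU-P301L extracts and from 14.5 to 14.8 in their littermates (log2), higher in the transgenic extract of 3 pairs. Their part in the motor gene values was not tested.

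In TAU-P301L glia none of the 27 motor genes tested passed, and none of all 8907 genes did (0%). At an unadjusted p under 0.05 there were 4, Dynlrb1 and Kif2a higher and Klc2 and Klc3 lower, where 12.9% of all genes were below that p, 4.76% higher and 8.17% lower. The median was -0.0049 over the motor genes and 0.00 over all genes.

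Dynlrb1 had levels of 9.27, 9.14, 9.29 and 9.40 in TAU-P301L glia, against 9.10, 9.02, 8.95 and 8.92 in their littermates (log2 intensity, pairs 1 to 4). The transgenic extract was higher in every pair. The log2 ratios were 0.17, 0.12, 0.34 and 0.48 (mean 0.28 ± 0.16, SD, n = 4 pairs; limma adjusted p = 0.283). Dynlrb1 was the only motor gene of 1 sign in all TAUgl pairs, where 17.8% of all genes had 1 sign. Of the 27 motor genes tested, 4 lacked a pair and could not be counted in this way.

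Klc2 had levels of 6.34, 8.14, 7.98 and 8.63 in TAU-P301L glia, against 6.31, 8.33, 8.45 and 9.05 in their littermates. Pair 1 lay far below the other pairs in both extracts and was the only one with the transgenic extract not lower. The log2 ratio averaged -0.26 ± 0.23 (SD; limma adjusted p = 0.304). Kif2a had -0.18, 0.66, 0.20 and 0.26, and pair 1 again differed from the others. Without TAUgl pair 1 and the other 2 pairs that stood apart, Kif2a averaged 0.37, Klc2 -0.36 and Dynlrb1 0.31, and none passed (limma adjusted p = 0.146, 0.168 and 0.160). In TAUgl 9 of 10 motor neuron markers were above 0, with a median of 0.34, and 1 of 8 oligodendrocyte and 1 of 9 astrocyte markers were, with medians of -0.20 and -0.14. The summed oligodendrocyte markers ranged from 12.9 to 13.7 in TAU-P301L extracts and from 13.2 to 13.8 in their littermates (log2), lower in the transgenic extract of all 4 pairs. Their part in the motor gene values was not tested.

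**Figure D4:**
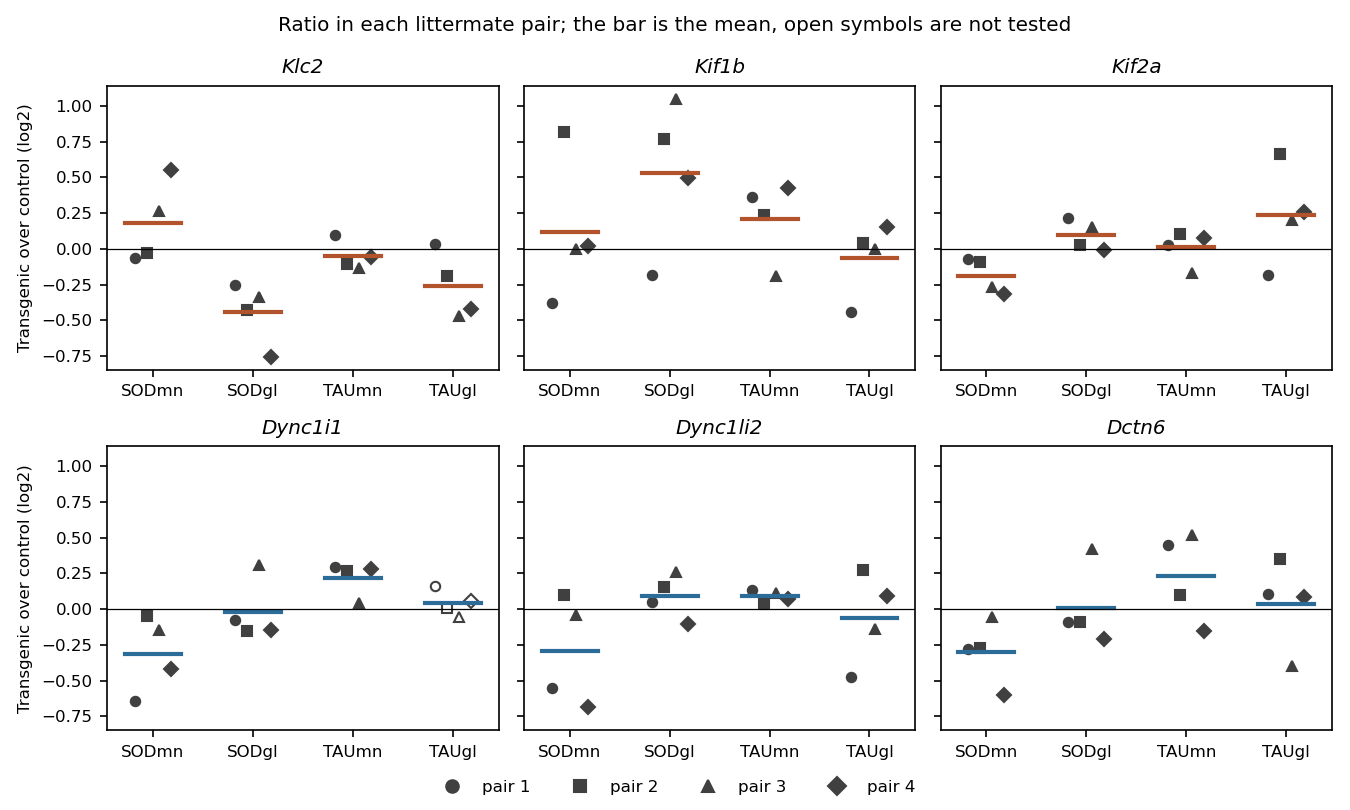
Log2 ratio of transgenic over control in each littermate pair (y axis) for Klc2, Kif1b, Kif2a, Dync1i1, Dync1li2 and Dctn6 in the 4 comparisons. Klc2 is below 0 in all 4 SODgl pairs, and Dync1i1 is below 0 in all 4 SODmn pairs and above 0 in all 4 TAUmn pairs.

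The differences between comparisons were tested in the same limma fit. None of the motor genes passed in any of the 4 differences, and none of all genes did (0% of 13941, 12142, 13583 and 10927 genes). Between SOD1-G93A motor neurons and glia, 6 motor genes had an unadjusted p under 0.05, where 11.5% of all genes did, 7.02% higher and 4.53% lower: Klc2 at 0.62 (limma adjusted p = 0.135) and Klc3 higher, and Dync1i1 at -0.30, Dync1li1, Dync1li2 and Kif5b lower. Dync1li1 was above background in 4 of the 8 SODmn extracts and in 2 of the 8 SODgl extracts, and so was not tested in SODgl itself. Between SODmn and SODgl 3 of 13 motor neuron markers were above 0 (median -0.23), and 4 of 8 oligodendrocyte markers (median 0.03). The part of these markers in the differences was not tested. Between SOD1-G93A and TAU-P301L motor neurons there were 7, where 9.1% of all genes did, 3.57% higher and 5.53% lower. Dync1i1 differed by -0.53 ± 0.13 (SE; limma adjusted p = 0.375), Dctn6 by -0.53 and Dync1li2 by -0.38, and Kif22 and Kif24 were lower too, with Klc3 and Dynlt1 higher. In this difference 3 of 13 motor neuron markers were above 0, with a median of -0.23, and 8 of 8 oligodendrocyte markers, with a median of 0.19. Between SOD1-G93A and TAU-P301L glia there were 3, where 5.49% of all genes did, 3.62% higher and 1.87% lower: Dynlrb1 at -0.42, Kif1b at 0.59 and Kif21b at 0.23. There 1 of 10 motor neuron markers was above 0 (median -0.27), and 8 of 8 oligodendrocyte markers were (median 0.28). Between TAU-P301L motor neurons and glia there was none, where 4.08% of all genes did, 1.75% higher and 2.34% lower.

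Other genes of the same machinery were read from 3 lists, and none of their members passed in any of the 4 transgenic comparisons. Between control cell types their counts stand beside the 23.5% of all genes that were higher and the 13.6% that were lower. Of 6 further dynactin subunits, 3 were higher in control motor neurons than in control glia and none lower: Actr1b by 0.60, Capzb by 0.53 and Capza2 by 0.47 on the log2 scale. The lowest of the 6 was at -0.60 and did not pass. Of 9 dynein regulators tested, 3 were higher and 1 lower, with Hap1, a partner of huntingtin, at 1.16 and Hook3, a cargo adaptor, at -0.51. The third list held kinesin partners and adaptors together with the Kifc kinesins. Of its 16 genes tested, 7 were higher and 1 lower, with Kifap3, the accessory subunit of kinesin-2, at 1.29 and Kifc3, itself a kinesin, at -0.54. In the transgenic comparisons Actr1a had the smallest p of the dynactin subunits in TAUgl, at 0.41 ± 0.19 (log2 ratio, SD; limma adjusted p = 0.221). Klc1, read under its older name, averaged -0.26 in SODmn, 0.09 in SODgl, 0.05 in TAUmn and 0.39 in TAUgl, and did not pass in any.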

How the data were processed

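Spot intensity, on a linear scale, was deposited for each array; per the file headers the authors made it with Agilent Feature Extraction 8.5.1.1 (motor neurons) or 9.5.1.1 (glia); the submitters' processing notes give 8.5.1.1 for all. The files' log10 ratio of Cy5 over Cy3 and the authors' deposited series matrix of log10 ratios served as alternatives. Gene names come from the glia files, and probe coordinates are mm8 per the file headers.

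Mean intensity was corrected with normexp (offset 50) in limma 3.58.1 under R 4.3.3 and normalized by loess within arrays, with control spots at weight 0 and outlier spots left out. Ratios were turned by dye and averaged per pair, and 1 fit held all 16 pairs. A pair lacking a value on either array was left missing. Control levels are single-channel log2 intensity after Aquantile normalization, averaged over both dyes and fitted with colony as a covariate, for genes above background in at least 8 of the 16 control extracts. The scripts were tested on simulated data. Genes to name were picked by rule: the axonal transport core, in each comparison the 3 kinesins and the 3 dynein and dynactin genes of smallest p, and those that passed. Not all of them are described. Kif3a, Kif3b and Kif3c of the core are left out, as are the log2 ratios of Kif22 in TAUmn and Dynll1 in SODgl, among others. The members and lists were chosen with earlier results of these data known. The alternatives covered background, normalization, probe choice, filters, scan, replicate number and pairs left out. Where nothing says that samples are separate cultures or dissections, p-values measure only the spread between these mice. Scanner files hold no counts, so no depth is given.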

Additional observations from a re-analysis of the deposited data

Results flagged for a closer look

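Within groups of 4 to 8, 81 sets of values were examined for a sample far from the others, and 8 were found; chance gives about 1 in 20. Dync1i1 in TAUmn pair 3 had a log2 ratio of 0.0410, away from the other 3 pairs. The other 7 are control levels of SODmn pair 3 among the 8 control motor neuron extracts (log2 intensity): Dctn5 at 7.03, Dync1i2 at 6.84, Dynll1 at 7.78, Dynlrb1 at 7.41, Kif1a at 7.94, Kif5a at 8.75 and Kif5c at 7.83, each below the rest.

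Dync1i1 was below 0 in all 4 SODmn pairs and above 0 in all 4 TAUmn pairs, a difference of -0.53 (limma adjusted p = 0.375). Klc3 was above 0 in all 4 SODmn pairs and below 0 in all 4 TAUmn pairs, a difference of 0.17 (limma adjusted p = 0.547). Neither passed after adjustment.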

How the results depend on the processing

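In the 4 comparisons and 4 differences, 0 motor genes passed under each of 150 settings, and 0 to 8 had an unadjusted p under 0.05; at most 5 of all genes passed in any of them. Between control cell types the count of 8 became 4 with SOD littermates alone, 1 with TAU littermates alone, 0 where all 16 control extracts had to be above background, 15 without SODmn replicate 3 and 15 without the 3 pairs that stood apart; leaving out 1 replicate at a time gave 8 to 15. Fewer extracts enter with the littermates of 1 colony alone. None of the 8 genes was above background in all 16 control extracts, so none of them could enter that setting. For the settings with pairs left out the cause was not tested. The processed signals moved the median difference of all genes to 0.41, against 0.09. Same-numbered pairs correlated between -0.171 and 0.519 and were best matched to their own number in 8 of 24 cases. Some of these cases set 1 colony against the other, where no mouse can be shared. Within a colony, log2 ratios were best matched in 1 of 4 cases for SOD1-G93A and 3 of 4 for TAU-P301L. Control levels were in 2 of 4 and 1 of 4. This does not settle whether motor neurons and glia of 1 number came from the same mouse. With the replicate number as a block 9 genes passed between control cell types and 0 in each difference. Single values turned sign for Dynlrb1 in SODgl (0.0895 with median centring, and -0.29 to 0.0085 leaving out 1 replicate at a time, against -0.15), Dctn5 in TAUgl (-0.0186 with the mean of all probes, against 0.15), Dynlrb2 in TAUgl (0.0830 in the authors' deposited matrix, 0.0526 within scan 4, and -0.26 to 0.0526 leaving out 1 replicate at a time, against -0.14) and Klc3 in TAUgl (0.0143 with median centring, against -0.13); the cause was not tested. The 0.0526 for Dynlrb2 came from TAUgl pairs 3 and 4 in both settings, so it is 1 check. Of 961 single values, 938 kept direction and side of the threshold, and 16 between control cell types no longer passed. With transgenic extracts in place of controls these were Kif2a at 0.30 and Klc2 at -0.58 (limma adjusted p = 0.279 and 0.102). With processed signals they were Kif1c at -0.71 and Dynlt1 at -0.45, and with the mean of all probes Dynlt1 at -0.19. The rest came with the littermates of 1 colony alone. Signal near background limits Dync1i1 in glia and the 18 genes never tested. It also limits tested genes such as Dctn1 and Dync1li1, above background in 8 and 6 of the 16 control extracts.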
